A study of Gallus gallus with 10 samples.

Results

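GBX2, PAX2, IRX1, IRX2 and IRX4 encode transcription factors of the posterior head ectoderm and the neighboring neural plate, and they were read here in precursors of the sensory placodes of the chick. They are represented by 8 of the 38439 probe sets of the Affymetrix chicken array, chosen because the platform annotation gives a probe set 1 of these 5 gene symbols and no other. They are 5 of 13009 genes with a symbol of their own on the array. GBX2, IRX1 and IRX2 have 1 probe set each, PAX2 has 2 and IRX4 has 3. The rule for probe sets used the annotation alone, but the 5 genes were chosen with earlier results of these data known. Of the 8 probe sets, 5 were tested, because MAS5 called them present on 2 or more of the 8 arrays whose calls could be used, and they stand for 4 genes. The 3 others, both of PAX2 and the third of IRX4, had fewer. A further probe set is annotated to both IRX6 and IRX4, was present on 0 arrays and was not counted.

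The arrays carry total RNA of untreated chick ectoderm, given as HH5-7 in the stage label and as HH6 in the titles of the uncultured samples, cut by hand from the preplacodal region, the band of ectoderm next to the anterior neural plate that holds placode precursors. The 4 groups are posterior precursors held as explants in rat tail collagen for 5 hr (cultured pPPs, 2 arrays), posterior precursors processed at once (pPPs, 3 arrays), anterior precursors held in the same way (cultured aPPs, 2 arrays) and anterior precursors processed at once (aPPs, 3 arrays). The labels number the samples by set but do not say how many embryos a sample pooled or whether samples came from separate dissections, so p-values measure the spread between these samples, which may be technical. The study asked which genes move with Pax6 when precursors are removed from their surroundings. No array carries ectoderm that stayed in the embryo during these 5 hr, so culture and added age cannot be told apart, and fewer cells of a type cannot be told apart from less RNA per cell.

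GBX2 is a homeobox factor known for setting the posterior limit of OTX2 expression at the border of midbrain and hindbrain, and in frog and chick ectoderm GBX2 and OTX2 restrain each other at the border between posterior and anterior placode precursors. PAX2, a paired-box factor, is an early marker of the common precursors of the inner ear and the epibranchial ganglia, and is needed for development of the inner ear. The Iroquois proteins are homeodomain factors of the TALE class that lie in gene clusters and divide neural and placodal ectoderm into territories along the head-to-tail axis. In the chicken RefSeq annotation (GRCg7b) IRX4, IRX2 and IRX1 follow one another with no other protein-coding gene between them.

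The 10 arrays differed in brightness: the median deposited signal lay between 6.2 and 21.3, and 44.7 to 50.2% of probe sets had a present call. Signals were therefore quantile normalized. Differences are given on a log2 scale after adding 16 to the normalized signal, an arbitrary unit, which understates the change of dim genes. In the deposited table of detection calls 2 columns carry the same name, that of cultured aPP set 2, and none carries the name of cultured pPP set 2. The calls of these 2 columns were not used, and the groups were taken from the sample labels. For the 5 tested probe sets, cultured results are also given without both set 2 arrays where that changes a call or a sign. Results of all other genes are given with all 10 arrays only. The levels of different probe sets cannot be compared with one another.

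Before culture GBX2 and IRX2 were higher in pPPs than in aPPs, each by about the same factor, while IRX1 averaged less in pPPs and IRX4 differed by less than its spread. GBX2 had a normalized signal of 239, 161 and 194 in pPPs of sets 1, 2 and 3, against 88.2, 79.7 and 105 in aPPs of the same sets. The groups did not overlap, as was the case for 13.9% of all tested probe sets, while 1.89% were called. The means were 198 ± 39.0 in pPPs and 91.1 ± 13.1 in aPPs (SD, n = 3 each). This was a log2 difference of 0.99 (standard error 0.20, 95% confidence interval 0.56 to 1.42, adjusted p = 0.0166 from limma), or 1.99-fold with 16 added. GBX2 was called present on 8 of 8 arrays, those of aPPs included. IRX2 had 216, 148 and 148 in pPPs, against 97.0, 59.6 and 73.4 in aPPs. Here too every pPP array lay above every aPP array. The means were 170.4 ± 39.1 in pPPs and 76.7 ± 18.9 in aPPs (SD, n = 3 each), a log2 difference of 1.01 (standard error 0.21, 95% confidence interval 0.56 to 1.45, adjusted p = 0.0181 from limma). Like GBX2, IRX2 was present on 8 of 8 arrays.

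**Figure D1:**
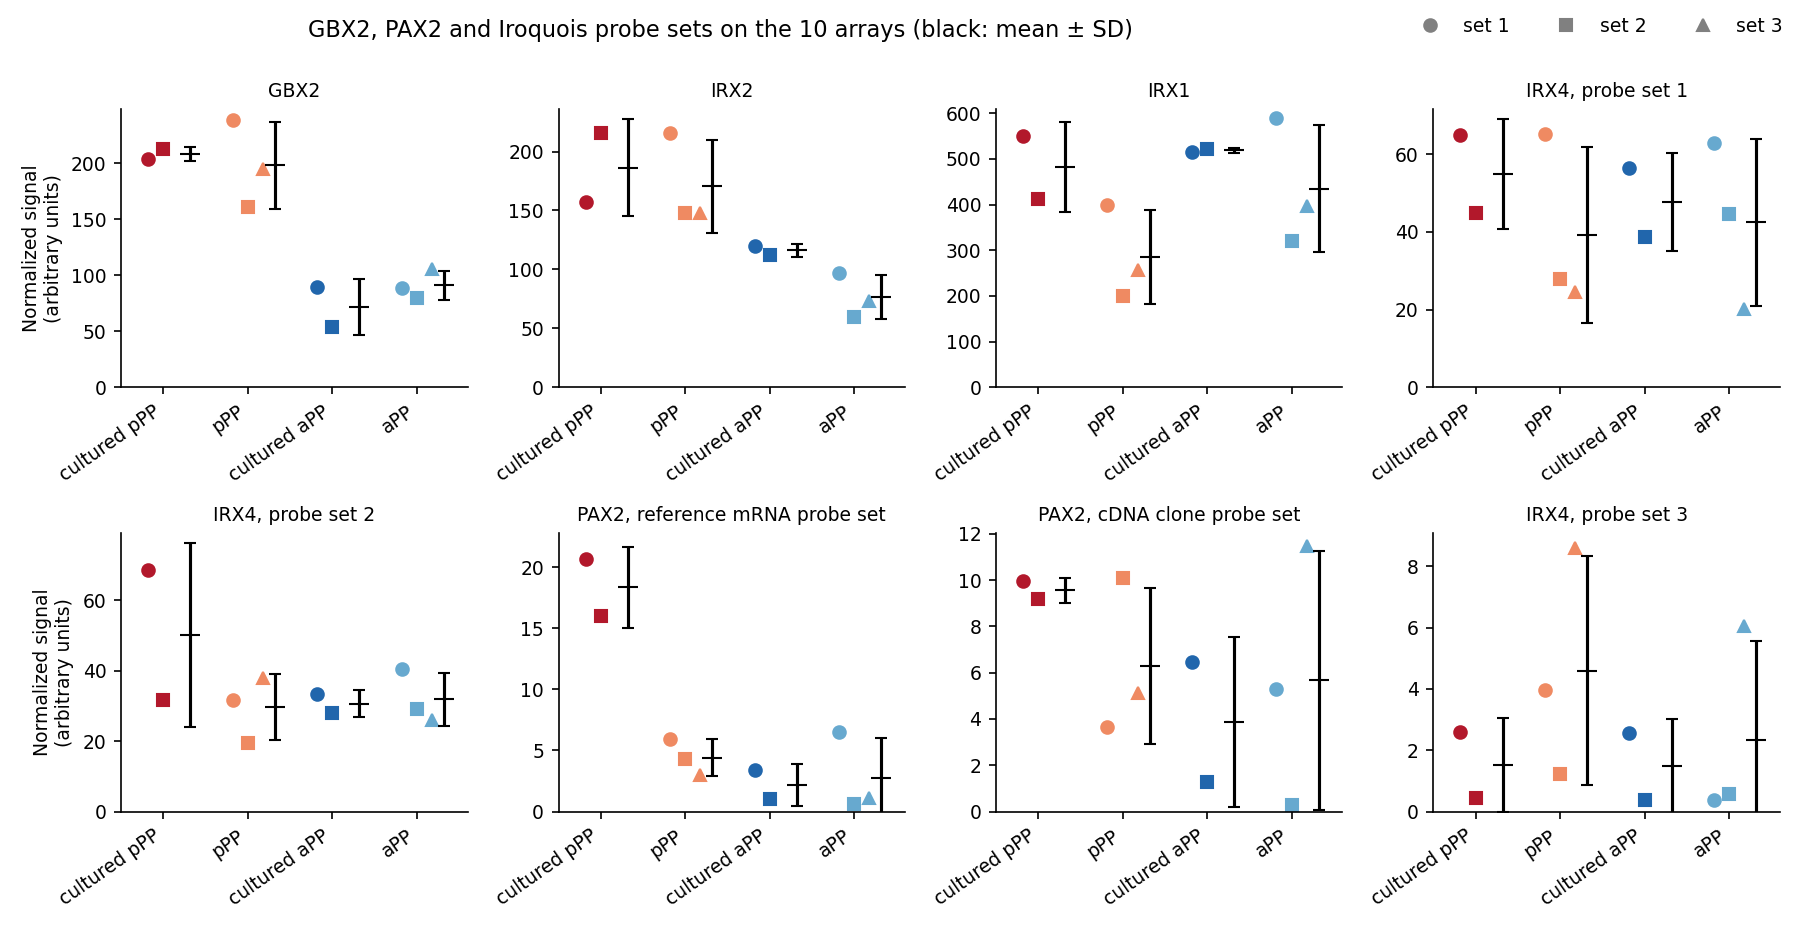
Normalized signal (arbitrary units, linear axes from 0) of the 8 probe sets on the 10 arrays. Points are arrays, with the set number as symbol, and black bars are the mean ± SD of each group (n = 3 for pPPs and aPPs, n = 2 for cultured groups), cut off at 0 where the SD exceeds the mean. GBX2 lies between 161 and 239 on all pPP and cultured pPP arrays and between 54.25 and 105 on all aPP and cultured aPP arrays.

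Thus 2 of the 5 tested probe sets were called higher in pPPs and 0 lower, where 0.713% of all tested probe sets were called higher, 1.18% lower and 1.89% either way. The median log2 difference of the 5 was -0.08, beside 0.02 over all tested probe sets. Among the 154 probe sets called higher in pPPs, 82 had a larger log2 difference than GBX2 and 74 a larger one than IRX2. Both calls were lost when some single arrays were left out: without pPP set 1 the adjusted p from limma was 0.0847 for GBX2 and 0.0921 for IRX2, without aPP set 2 it was 0.0784 and 0.0932, without pPP set 3 GBX2 had 0.0504, and without aPP set 3 IRX2 had 0.0703. Without normalization between arrays neither gene was called (log2 difference 1.00 for each, adjusted p = 1.0 from limma). Over the whole array 58 probe sets were then called, in place of 408. Single-gene exact two-sided permutation tests of 3 arrays against 3 cannot go below p = 0.1, which is the value GBX2 and IRX2 both had.

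Within sets the direction was the same each time. For normalized signals this follows from the lack of overlap. The share of all probe sets with the same direction in every set was not computed. In the deposited signals, before any normalization, GBX2 had 376, 138 and 144 in pPPs of sets 1, 2 and 3 and 171, 65.8 and 62.3 in aPPs, ratios of 2.20, 2.09 and 2.31. IRX2 had 341.5, 127 and 110.0 in pPPs and 187, 49.8 and 44.8 in aPPs, ratios of 1.83, 2.55 and 2.46. The set 1 arrays were brighter than the others for both genes, in pPPs and aPPs alike, so that the ratio within a set varied less than the signals. Over the whole array, departures from the group means correlated between pPPs and aPPs of the same set, at 0.439, 0.182 and 0.226. The labels do not say what the samples of a set share. With the set number as a block over all 10 arrays, the adjusted p from limma was 0.00804 for GBX2 and 0.0143 for IRX2. That block includes the cultured arrays, which correlated with uncultured ones of their set at only -0.11 to 0.08.

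**Figure D2:**
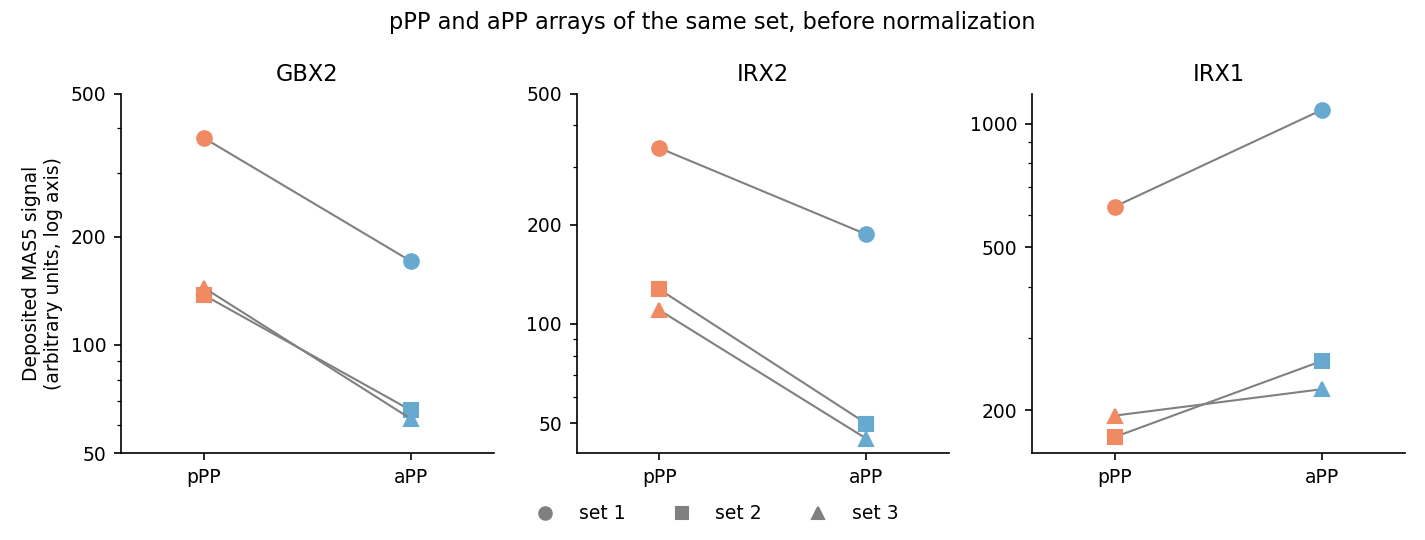
Deposited MAS5 signal (arbitrary units, log axis) of GBX2, IRX2 and IRX1 before normalization. Each line joins the pPP and the aPP array of 1 set. GBX2 and IRX2 are higher in pPPs in 3 of 3 sets, and IRX1 is lower in pPPs in 3 of 3 sets.

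IRX1, the neighbor of IRX2 in the genome, did not share this pattern. Its normalized signal was 399, 200.1 and 258 in pPPs of sets 1, 2 and 3, against 589, 319 and 396 in aPPs. The ranges overlapped, although the pPP array was the lower of the pair in 3 of 3 sets, with log2 differences of -0.54, -0.63 and -0.59. Here too no share over all probe sets was computed. The means were 286 ± 102 in pPPs and 435 ± 139 in aPPs (SD, n = 3 each). The log2 difference of -0.59 (standard error 0.24, 95% confidence interval -1.09 to -0.09) did not pass the adjustment over all probe sets (adjusted p = 0.354 from limma, exact permutation p = 0.3). The genes that flank the cluster gave -0.17 for NDUFS6 (adjusted p = 0.767 from limma) and -0.49 for ANKS6 (adjusted p = 0.384 from limma).

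IRX4 was dim. Its first tested probe set had 65.3, 27.8 and 24.6 in pPPs, against 62.9, 44.6 and 20.1 in aPPs, and its second had 31.5, 19.4 and 37.8 in pPPs, against 40.4, 29.2 and 26.0 in aPPs. Both probe sets were designed on the same mRNA, so they are not separate evidence. The ranges of pPPs and aPPs overlapped in both. The log2 differences were -0.09 (95% confidence interval -0.71 to 0.54, adjusted p = 0.98 from limma) and -0.08 (95% confidence interval -0.57 to 0.41, adjusted p = 0.978 from limma), so that differences of the size seen for GBX2 lie outside both intervals. Each of these probe sets was present on 7 of 8 arrays. The third IRX4 probe set was present on 0 of 8 arrays, with group means between 1.47 and 4.60.

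PAX2 was at the limit of detection before culture. The probe set from its reference mRNA had 5.97, 4.32 and 2.97 in pPPs, against 6.55, 0.65 and 1.10 in aPPs, and was present on 0 of 3 pPP and 0 of 3 aPP arrays. The probe set from a cDNA clone had 3.66, 10.1 and 5.12 in pPPs, against 5.29, 0.27 and 11.45 in aPPs, with a marginal call on 1 aPP array and no present call in either group. Both are therefore not well above background in pPPs and in aPPs, and no fold is given.

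After culture GBX2 was again higher in posterior than in anterior precursors, IRX2 averaged more in cultured pPPs but did not pass the test, and IRX1 and IRX4 overlapped between the groups. GBX2 had 203 and 212 in cultured pPPs of sets 1 and 2, against 89.15 and 54.25 in cultured aPPs. The cultured groups did not overlap, which with 2 arrays against 2 held for 43.3% of all tested probe sets, and the means were 208 ± 6.31 and 71.7 ± 24.7 (SD, n = 2 each). The log2 difference was 1.38 (standard error 0.25, 95% confidence interval 0.85 to 1.91, adjusted p = 0.0298 from limma), 2.61-fold with 16 added. GBX2 was 1 of 5 tested probe sets called higher, where 0.13% of all tested probe sets were called higher 0.102% lower and 0.232% either way. The call was lost when any of the 4 cultured arrays was left out: without cultured pPP set 1 or set 2 the adjusted p from limma was 0.261 or 0.063, without cultured aPP set 1 or set 2 it was 0.0797 or 0.588, and without both set 2 arrays the log2 difference was 1.06 (adjusted p = 0.403 from limma). It was also lost with all 38439 probe sets tested (adjusted p = 0.0563 from limma), with only the 4 cultured arrays in the model (adjusted p = 0.0511 from limma) and without normalization (adjusted p = 1 from limma). Without normalization 0 of all tested probe sets were called between the cultured groups.

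IRX2 had 157 and 215 in cultured pPPs, against 119.8 and 112 in cultured aPPs. As for 43.3% of all tested probe sets, the cultured groups did not overlap, and the log2 difference was 0.60 (standard error 0.26, 95% confidence interval 0.06 to 1.15), with an adjusted p of 0.507 from limma. IRX1 had 551 and 413 in cultured pPPs, against 515 and 522 in cultured aPPs, so the ranges overlapped and the log2 difference was -0.12 (95% confidence interval -0.73 to 0.50, adjusted p = 0.928 from limma). The IRX4 probe sets differed by 0.16 and 0.45 on the log2 scale (limma, adjusted p = 0.925 and 0.665). The PAX2 probe set of the reference mRNA had 20.7 and 16.01 in cultured pPPs, against 3.42 and 0.99 in cultured aPPs, and was not in the test.

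No tested probe set of these genes passed the threshold between cultured and uncultured precursors in limma. Between cultured pPPs and pPPs 0 of 5 were called, where 3.93% of all tested probe sets were, although 5 of 5 had a positive difference, with a median of 0.42 beside -0.01 over all tested probe sets. GBX2 and IRX2 turned negative here without normalization, at -0.121 and -0.0807 on the log2 scale. At an unadjusted p under 0.05 there was 1 of 5, IRX1, beside 18.1% of all tested probe sets. Between cultured aPPs and aPPs 0 of 5 were called, where 3.71% of all tested probe sets were, and the median was 0.18 beside 0.00, with 1 of 5, IRX2, at an unadjusted p under 0.05, beside 16.7% of all tested probe sets. These 2 comparisons share no arrays with each other, but they share the normalization and the estimate of the spread. Each also shares arrays with the comparisons of posterior and anterior precursors. For GBX2 the log2 difference was 0.08 between cultured pPPs and pPPs (95% confidence interval -0.40 to 0.56, adjusted p = 0.895 from limma) and -0.31 between cultured aPPs and aPPs (95% confidence interval -0.79 to 0.17, adjusted p = 0.54 from limma). For IRX2 it was 0.12 in posterior precursors (95% confidence interval -0.37 to 0.62, adjusted p = 0.838 from limma) and 0.53 in anterior ones (95% confidence interval 0.03 to 1.03, adjusted p = 0.266 from limma), where the cultured aPPs, at 119.8 and 112, lay above the aPPs, at 97.0, 59.6 and 73.4. Of all tested probe sets 36.1% did not overlap in that comparison.

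IRX1 had the largest difference of the 5 between cultured pPPs and pPPs. Its signals of 551 and 413 in cultured pPPs lay above all 3 pPP arrays (399, 200.1 and 258), where 33.6% of all tested probe sets did not overlap. This was a log2 difference of 0.76 (standard error 0.26, 95% confidence interval 0.20 to 1.32) with an adjusted p of 0.125 from limma. Without pPP set 1, the highest of the pPP arrays, the log2 difference was 1.02 and passed the threshold (adjusted p = 0.0394 from limma). That was the only call of IRX1 here, in 1 of 21 alternatives. Without pPP set 2 the log2 difference was 0.55 (adjusted p = 0.34 from limma), and without cultured pPP set 1 it was 0.56. Between cultured aPPs and aPPs IRX1 differed by 0.29 (adjusted p = 0.636 from limma). The second IRX4 probe set had 68.5 and 31.6 in cultured pPPs, against 31.5, 19.4 and 37.8 in pPPs, which overlap (log2 difference 0.50, adjusted p = 0.328 from limma), and the first had 64.85 and 44.9, against 65.3, 27.8 and 24.6 (log2 difference 0.42, adjusted p = 0.551 from limma).

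**Figure D3:**
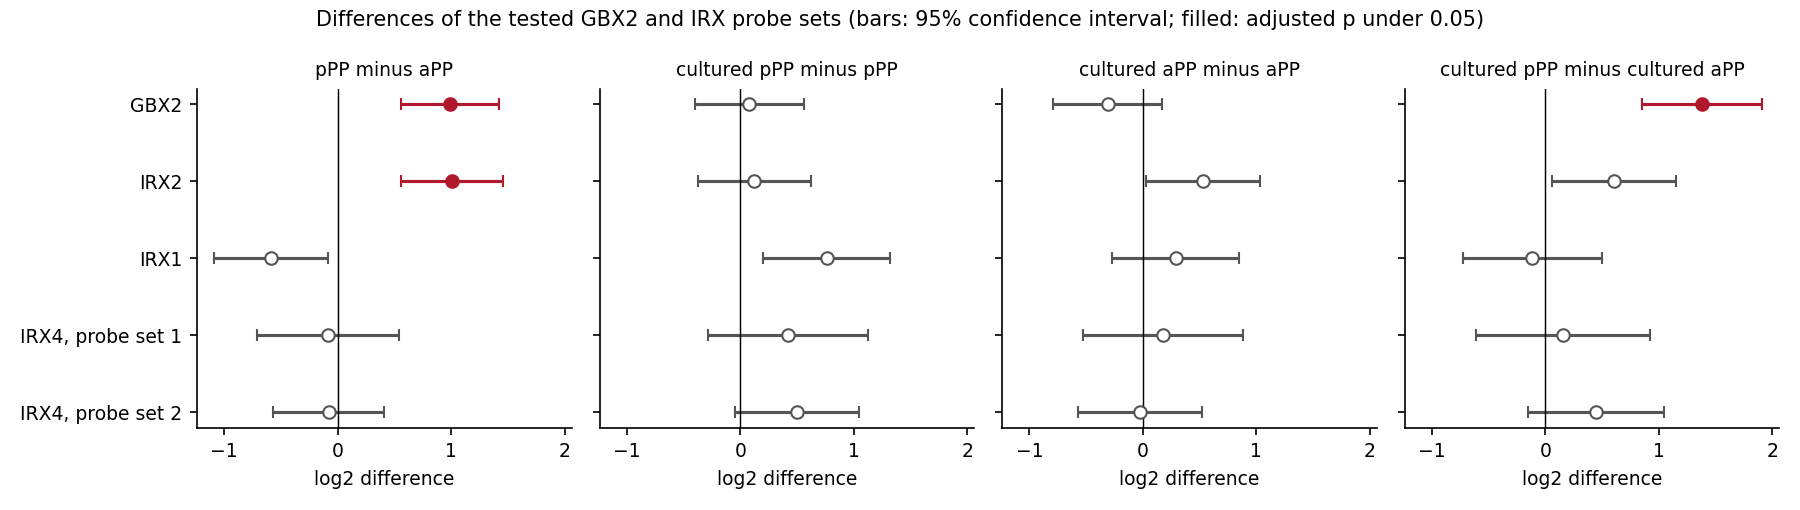
Log2 differences of the 5 tested probe sets in 4 comparisons, on the scale of normalized signal with 16 added. Points are estimates from limma, bars are 95% confidence intervals and filled points have an adjusted p under 0.05. GBX2 is at 0.99 for pPPs minus aPPs and at 1.38 for cultured pPPs minus cultured aPPs, and IRX2 is at 1.01 and 0.60.

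The response to culture was also compared between posterior and anterior precursors. The difference of the responses was 0.39 for GBX2, -0.41 for IRX2, 0.47 for IRX1, and 0.24 and 0.53 for the IRX4 probe sets, on the log2 scale. The count past the threshold was 0 of 5 (adjusted p between 0.863 and 0.955 from limma), where 0.0139% of all tested probe sets passed, and it was 0 of 5 at an unadjusted p under 0.05 too, beside 6.18% of all tested probe sets. The interval for IRX2, -1.11 to 0.30, and that for GBX2, -0.29 to 1.08, both include 0.

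PAX2 was brightest in cultured pPPs. The reference mRNA probe set had 20.7 and 16.01 in cultured pPPs, against 5.97, 4.32 and 2.97 in pPPs, and did not overlap with any other group. Of all tested probe sets, 33.6% did not overlap between cultured pPPs and pPPs and 43.3% between cultured pPPs and cultured aPPs. The share between cultured pPPs and aPPs was not computed, and PAX2 itself was not among the tested probe sets. Its present call came on 1 of 8 arrays, cultured pPP set 1, the only cultured pPP array with a usable call. Each pPP array was given the higher of its PAX2 signal and its lowest signal among probe sets present on all pPP arrays. Against these values cultured pPPs averaged 1.64-fold higher with 16 added, a bound on the pPP side only. This bound uses the minimum over the array, not a limit measured for PAX2. It also leaves out the spread of the 2 cultured pPP arrays, so it is not a minimum for the difference. The bounds given below for PAX7 and ETV4 were made in the same way. Because PAX2 has only a bound in pPPs, no fitted difference is given. With all 38439 probe sets tested, the adjusted p from limma was 0.0434 between cultured pPPs and pPPs and 0.124 between cultured pPPs and cultured aPPs. In that test 516 probe sets were called between cultured pPPs and pPPs. For the difference of the responses to culture between posterior and anterior precursors, the adjusted p from limma was 0.676. PAX2 was not in the fits with arrays left out. The cDNA clone probe set was also called present only on cultured pPP set 1, but had 9.95 and 9.18 in cultured pPPs, against 3.66, 10.1 and 5.12 in pPPs, which overlap (adjusted p = 0.745 from limma with all probe sets tested). The test with PAX2 includes 16848 probe sets that were present on fewer than 2 arrays.

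Ordered by mean signal, GBX2 ran from 208 in cultured pPPs over 198 in pPPs and 91.1 in aPPs to 71.7 in cultured aPPs. The arrays overlap in the first and the last step of this order, and the middle step is the difference between pPPs and aPPs. IRX2 ran from 186 in cultured pPPs over 170.4 in pPPs and 116 in cultured aPPs to 76.7 in aPPs. The first of these steps overlaps. The last does not, as for 36.1% of all tested probe sets. Nor does the middle step, for which the share over all probe sets was not computed. In the comparisons of cultured with uncultured arrays of the same region, which have the same numbers of arrays, the shares were 33.6% and 36.1%. IRX1 had another order, with 519 in cultured aPPs, 482 in cultured pPPs, 435 in aPPs and 286 in pPPs, and each neighboring pair of groups overlapped. The first IRX4 probe set had 54.9 in cultured pPPs, 47.6 in cultured aPPs, 42.5 in aPPs and 39.2 in pPPs, with overlap at each step.

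GBX2 was among the genes called higher in posterior precursors both before and after culture, although its call in culture depended on single arrays, as given above. Of the 154 probe sets called higher in pPPs than in aPPs, 132 had a positive difference between cultured pPPs and cultured aPPs. These 2 comparisons share no arrays, but they share the normalization and, for each probe set, the estimate of the spread. Calls in both are therefore not independent. The overlap of calls was computed with all 10 arrays only, and not without both cultured set 2 arrays. Called higher in both were 19, which is 12.3% of the 154 and 67.9% of the 28 called higher in cultured pPPs. They include 15 named genes: FST, a secreted antagonist of activin and BMP, the neural factors ZIC1, ZIC2 and ZEB2, the dorsal and neural crest factors PAX7, LMX1B and TFAP2B, CYP26A1, which breaks down retinoic acid, HES6, ENC1, OLFM1, DRAXIN, MYLK, ACSL6 and GBX2. IRX2 is not among them, because it did not pass the test in culture, where its log2 difference was 0.60. CYP26A1 had a log2 difference of 0.97 before culture (adjusted p = 0.0113 from limma), close to that of GBX2, and 2.66 in culture (adjusted p = 9.04e-05 from limma).

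Across the 10 arrays the profiles most like GBX2, among 16978 tested probe sets with 1 gene symbol, were those of CAMK1G, which encodes a calcium-dependent kinase, at r = 0.94 and 0.91 for 2 probe sets, RBM26 (r = 0.93), MAK16 (r = 0.92) and SPATA5L1 (r = 0.91). Both CAMK1G probe sets were also called higher in pPPs than in aPPs, by 1.10 and 1.05 on the log2 scale (adjusted p = 0.0154 and 0.0162 from limma). Most like IRX2 were WDR3 (r = 0.96), GEMIN2 (r = 0.95), SRSF7, FST and SPATA6 (r = 0.92 each). Of these 5, FST was called higher in pPPs, at 336 against 11.7 in aPPs. Most like IRX1 were TRIM36 (r = 0.94), MTHFSD (r = 0.94), KIAA0040, TPM3 and S100A1, and most like IRX4 were RAB26 (r = 0.94), RASL11B, RPL29, SH3TC2 and CGAS. These correlations are descriptions over 10 arrays that fall into 4 groups, and the points share the array, its brightness and its set.

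The other Iroquois genes add little. Of IRX3, IRX5 and IRX6, IRX5 alone has a probe set of its own, which was present on 0 of 8 arrays and was not tested. Of 5 other PAX genes 4 have a probe set and 3 were tested. PAX7, a marker of the neural plate border and the neural crest, was higher in pPPs, at 21.9 against 1.01 in aPPs, where it was present on 0 of 3 arrays (bound of 2.00-fold with 16 added, adjusted p = 0.000377 from limma). It was again higher in cultured pPPs, at 31.5 against 4.25 in cultured aPPs (adjusted p = 0.00741 from limma), where it was not present on the 1 array with a usable call. PAX7 entered the test only through present calls on pPP and cultured pPP arrays, the groups where it was high. PAX6, the lens and olfactory factor around which the study was designed, was higher in cultured pPPs, at 169 against 26.5 in pPPs (log2 difference 2.13, adjusted p = 0.0012 from limma). It was higher in cultured aPPs too, at 365 against 64.5 in aPPs (log2 difference 2.30, adjusted p = 0.000596 from limma). The tested probe sets of GBX2, IRX1, IRX2 and IRX4 passed in neither of these comparisons.

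Of 17 genes of the otic and epibranchial placodes, to which PAX2 belongs, 11 have a probe set and 9 were tested. Between pPPs and aPPs 2 were called higher and 1 lower, with a list median of 0.12 beside 0.02 over all tested probe sets. LMX1B, a LIM homeobox factor, was higher, at 55.0 in pPPs against 6.91 in aPPs (log2 difference 1.62, adjusted p = 0.000164 from limma), as was ETV4, a target of FGF signaling present on 1 of 3 pPP and 0 of 3 aPP arrays (bound of 1.61-fold with 16 added, adjusted p = 0.0358 from limma). ETV4 entered the test only through present calls on pPP and cultured pPP arrays. GATA3, which marks the nonneural ectoderm at these stages and the ear later, was lower, at 70.7 in pPPs against 200.4 in aPPs (log2 difference -1.39, adjusted p = 0.0284 from limma). In culture LMX1B alone was higher in cultured pPPs than in cultured aPPs (log2 difference 1.53, adjusted p = 0.00739 from limma). SOX8 and SOHO-1, factors of the otic region, were higher in cultured pPPs than in pPPs (0.73 and 0.99 on the log2 scale; limma, adjusted p = 0.0425 and 0.00976) and also in cultured aPPs than in aPPs (limma, adjusted p = 0.0087 and 0.00576; SOHO-1 was present on 0 of 3 aPP arrays).

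Of 20 genes of the hindbrain and posterior neural tube 13 have a probe set and 5 were tested, and none was called higher in pPPs. HOXA3 was lower in pPPs, at 8.21 against 51.5 in aPPs (log2 difference -1.46, adjusted p = 0.0108 from limma). GBX1, the paralog of GBX2, was present on 1 of 8 arrays and was not tested. Of 12 genes of the anterior ectoderm 9 have a probe set and 6 were tested. Between pPPs and aPPs 0 of 6 were called. OTX2, the antagonist of GBX2, had 1385 in pPPs and 1149 in aPPs (log2 difference 0.28, adjusted p = 0.607 from limma). Between cultured pPPs and pPPs OTX2, SIX3 and HESX1 were lower (-1.06, -1.98 and -2.44 on the log2 scale; limma, adjusted p = 0.00209, 0.00123 and 6.82e-06), and SIX3, an anterior eye and forebrain factor, was lower in cultured pPPs than in cultured aPPs, at 35.3 against 157 (log2 difference -1.74, adjusted p = 0.0313 from limma). Between cultured aPPs and aPPs 1 of the 6 was called lower and 1 higher. For the difference of the responses 0 of the 6 were called.

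**Figure D4:**
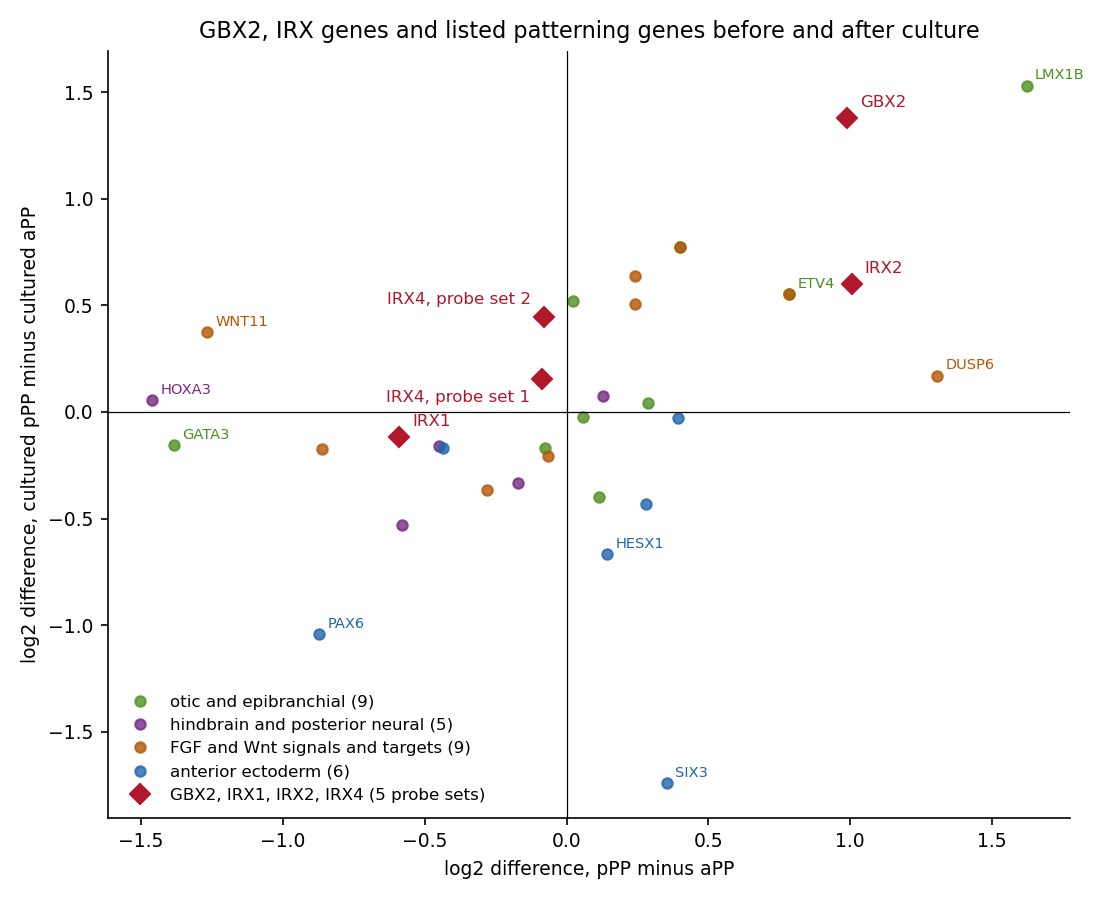
Log2 difference of pPPs minus aPPs (x axis) and of cultured pPPs minus cultured aPPs (y axis) for the 5 tested probe sets of GBX2, IRX1, IRX2 and IRX4 and for the tested genes of 4 lists, 1 probe set per gene; the numbers in brackets are genes tested and ETV4 and ETV5 belong to 2 lists. GBX2 lies at 0.99 and 1.38, near LMX1B at 1.62 and 1.53, whereas DUSP6 lies at 1.31 and 0.17.

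Of 18 FGF and Wnt signals and targets, pathways that induce posterior placodes and GBX2 and PAX2 with them, 16 have a probe set and 9 were tested. Between pPPs and aPPs 2 were higher and 1 lower. DUSP6, a phosphatase induced by FGF signaling, was higher, at 772 in pPPs against 296 in aPPs (log2 difference 1.31, adjusted p = 0.0155 from limma), together with ETV4, and the ligand WNT11 was lower (log2 difference -1.27, adjusted p = 0.0242 from limma). Between cultured pPPs and pPPs DUSP6 and ETV5 were lower, with -2.17 and -1.11 on the log2 scale (limma, adjusted p = 0.000792 and 0.00123), while WNT11 and AXIN2, a Wnt target, were higher, by 1.76 and 0.73 (adjusted p = 0.00471 and 0.0441 from limma). Between cultured aPPs and aPPs 2 of the 9 tested genes were also called lower and 0 higher. For the difference of the responses 0 of the 9 were called. GBX2 averaged 208 in cultured pPPs against 198 in pPPs, and the confidence interval of its log2 difference ran from -0.40 to 0.56. DUSP6 averaged 158 in cultured pPPs against 772 in pPPs. Whether GBX2 depended on FGF or Wnt signals in culture was not tested. The ligands FGF3, FGF4, FGF8, FGF19 and WNT8A were present on at most 1 of 8 arrays and were not tested.

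GBX2 and the Iroquois genes are also expressed in the neural plate, and markers of neighboring tissues moved with the groups. The summed signal of 9 neural plate genes was 1752 to 2187 in pPPs and 1594 to 1898 in aPPs, with ZEB2 as 1 of 7 tested genes called higher in pPPs, and 1385 to 1405 in cultured pPPs against 1076 to 1198 in cultured aPPs. That of 8 neural crest genes was 509 to 630 in pPPs and 406 to 506 in aPPs, with TFAP2B as 1 of 8 called higher, and 1276 to 1672 in cultured pPPs against 1128 to 1240 in cultured aPPs. Genes of the nonneural and preplacodal ectoderm, the labelled tissue, were well expressed on all arrays, at 6284 to 8195 in pPPs and 9492 to 10197 in aPPs, with GATA3 and KRT7 as 2 of 8 called lower, and at 8393 to 9280 in cultured pPPs against 9611 to 9838 in cultured aPPs. Mesoderm genes were at 310 to 656 in pPPs against 1151 to 1375 in aPPs, with FOXC2 lower and TBXT higher of 8 tested, and at 943 to 1281 in cultured pPPs against 1824 to 2187 in cultured aPPs. The bright FOXC2 carries most of these sums, and the median log2 difference of the mesoderm genes was 0.04 before and 0.13 after culture. TBX6 and TCF21 had no present call. Heart mesoderm genes were at 74.9 to 116 in pPPs against 197 to 682 in aPPs, with TNNT2 lower, and endoderm and mesendoderm genes at 221 to 272 against 305 to 1793, with SOX17 and HHEX lower of 4 tested. SOX17 entered the test only through present calls on aPP and cultured aPP arrays. Blood and endothelial genes were at 22.6 to 33.0 in pPPs against 38.4 to 67.8 in aPPs, and 4 of 8, among them the globins HBZ and HBBR, had no present call. Of 4 genes of the intermediate mesoderm, another site of PAX2, 2 have a probe set, LHX1 and EMX2. Their summed signal stayed between 6.14 and 17.5 on all arrays. LHX1 was present on 1 pPP array, and EMX2 on 1 pPP and 1 aPP array. So near the limit of detection, the sum cannot show whether this tissue varied. The median log2 differences of the other lists, pPPs minus aPPs, were 0.20 for neural plate, 0.11 for neural crest, -0.42 for nonneural and preplacodal ectoderm, -1.04 for heart mesoderm, -1.23 for endoderm and mesendoderm and -0.57 for blood and endothelium. The part of these tissues in the differences of GBX2, IRX2, IRX1 and PAX2 was not tested.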

How the data were processed

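The 10 Affymetrix arrays were all used. The authors amplified and labelled total RNA with NuGEN Ovation reagents and computed MAS5 signals, and the deposited values are these signals, a linear intensity in arbitrary units not scaled between arrays. The other deposited table holds MAS5 present, marginal and absent calls. No version of MAS5 is given in the sources read. The 96 control probe sets were dropped, signals were quantile normalized over 10 arrays, 16 was added and log2 taken. Group means were fitted with limma 3.58.1 in R 4.3.3 in 1 model of 10 arrays (eBayes with intensity trend), with Benjamini-Hochberg adjustment over the 21591 probe sets that were present on 2 or more of 8 arrays, and called at 0.05. The calls of 2 columns were not used. Exact permutation tests used scipy 1.17.1, and figures matplotlib 3.10.9 in Python 3.11.15.

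Gene symbols came from the platform annotation, which gives 1 symbol to 27168 probe sets. For each gene the probe set with the most present calls, then the highest mean signal, led. Most alike genes were the 5 tested probe sets with the highest Pearson r. From each gene list, called genes and up to 4 others were named. The genes and lists were chosen with earlier results of these data known. Set numbers were taken to pair pPPs with aPPs only because departures from the group means correlated at 0.439, 0.182 and 0.226 in sets 1, 2 and 3. For cultured against uncultured arrays the values were -0.11 to 0.08. Alternatives were the offset, normalization, filter, variance model, set as a block, array weights, arrays in the fit and each array left out. Leaving out both cultured set 2 arrays was added after seeing the data. In simulated data for pPP minus aPP over 21591 probe sets, 68 of 100 probe sets changed 2-fold and 98 of 100 changed 3-fold were called, with 4 of 21391 unchanged ones.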

Additional observations from a re-analysis of the deposited data

How the results depend on the processing

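The number of called probe sets of GBX2, PAX2 and the Iroquois genes depended on normalization, filter and single arrays. Calls over all 21591 tested probe sets changed as well. For pPPs minus aPPs they fell from 408 to 58 without normalization, to 317 without pPP set 1 and to 276 without aPP set 2. Between the cultured groups they fell from 50 to 0 without normalization. The counts that follow are of the member probe sets. For pPPs minus aPPs it was 2, 0 without normalization and 0 to 2 with 1 array left out. For cultured pPPs minus pPPs it was 0, and 0 to 1 with 1 array left out. Without the filter it was 1 (PAX2), beside 516 of 38439 over all probe sets. For cultured pPPs minus cultured aPPs it was 1, and 0 without normalization, without the filter, with only the arrays compared and without both cultured set 2 arrays, with 0 to 1 when 1 array was left out. In the other comparisons no setting gave a call. GBX2 in pPPs minus aPPs lay between 0.75 and 1.12 and IRX2 between 0.73 and 1.15 over all alternatives, each called in 17 of 21. Some of these alternatives left out only cultured arrays, which are not part of this comparison. Among the arrays compared, leaving out pPP set 1 or aPP set 2 lost both calls. Leaving out pPP set 3 lost that of GBX2, and leaving out aPP set 3 that of IRX2.

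Signs turned only for differences that were not called. Without normalization, which shifts the median of all probe sets by about -0.20 in cultured pPPs minus pPPs and -0.19 in cultured aPPs minus aPPs, GBX2 and IRX2 gave -0.121 and -0.0807 in cultured pPPs minus pPPs, and the first IRX4 probe set -0.106 in cultured aPPs minus aPPs. In the fit with set as replicate block that last value was -0.0701. With no other change, the second IRX4 probe set in place of the first gave -0.0283. Without both cultured set 2 arrays IRX2 gave -0.0856 in cultured pPPs minus pPPs, the second IRX4 probe set 0.0554 in cultured aPPs minus aPPs, and IRX1 0.0961 in cultured pPPs minus cultured aPPs.

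With 1 array left out, the first IRX4 probe set ranged from -0.404 to 0.159 (pPPs minus aPPs), -0.135 to 0.417 (cultured aPPs minus aPPs), -0.0500 to 0.361 (cultured pPPs minus cultured aPPs) and -0.00657 to 0.562 (difference of responses). The second ranged from -0.213 to 0.0909 (pPPs minus aPPs) and -0.119 to 0.0937 (cultured aPPs minus aPPs). GBX2 and IRX2 ranged from -0.0477 to 0.211 and -0.0845 to 0.334 (cultured pPPs minus pPPs), and IRX1 from -0.316 to 0.0853 (cultured pPPs minus cultured aPPs). A group left with 1 array is assumed to vary like the others. The cause was not tested. The replicate block changed no call of these genes, while it called 83 probe sets in place of 50 between the cultured groups and 15 in place of 3 for the difference of responses. The number of arrays limits precision, and PAX2 lies near the detection limit before culture.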
